A study of Mus musculus with 38 samples.

Results

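Pax2, Pax8, Hnf4a, Lhx1, Six2, Wt1, Emx2 and Gata3 are 8 mouse genes for transcription factors that lay down the renal lineage, and their RNA levels were followed through kidney tumours, tumour-derived cell lines and normal kidney. They were taken by gene symbol from a table of 21705 genes, and all 8 have a row of their own. The table holds 38 RNAseq libraries in 10 groups. Mice of 3 genotypes formed the tumours. MYC mice carry Ksp-rtTA and Tet-O-MYC, so that doxycycline (Dox) switches on human MYC in cells that use the Ksp (kidney-specific cadherin) promoter, a promoter of the renal tubule. VM mice carry in addition KspCreERT2 and Vhl F/F, and tamoxifen induces the Cre that deletes Vhl in the same tubule cells. VIM mice carry all of these alleles on a germline Ink4a/Arf-/- background, the locus of Cdkn2a. Each genotype has 3 tumour libraries from mice kept on Dox, and normal kidney has 5 libraries from wild-type mice given vehicle. The labels give no ages. The paper's text puts the start of Dox at about 8 weeks of age in MYC mice and their controls, and gives no age for VM or VIM mice. Each genotype also has 1 cell line, MYC-2983, VM-3055 and VIM-3039, with 4 libraries kept on Dox and 4 after Dox was withdrawn, so that MYC is on or off in cells that share all other alleles.

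These factors act at successive steps of kidney formation. PAX2 and PAX8 specify the nephric lineage, with PAX8 kept in adult tubules. LHX1, EMX2 and GATA3 follow in the nephric duct and ureteric bud, and GATA3 remains a factor of the collecting duct. SIX2 holds the nephron progenitors of the cap mesenchyme in an undifferentiated state, and WT1 acts in those progenitors and later in podocytes. HNF4A drives the maturation of proximal tubule cells and keeps their transport and metabolic genes on.

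Positions are given on NCBIM37, the mm9 assembly to which the reads were aligned. Pax2 lies at chr19:44830539-44912758 on the plus strand and Pax8 at chr2:24276071-24331119 on the minus strand. Hnf4a lies at chr2:163332544-163398646 (plus), Lhx1 at chr11:84331479-84338923 (minus), Six2 at chr17:86083608-86087594 (minus), Wt1 at chr2:104966686-105013773 (plus), Emx2 at chr19:59533180-59539847 (plus) and Gata3 at chr2:9778705-9811661 (minus). Neighbouring transcripts bear on several of these genes. Emx2os runs on the opposite strand at chr19:59499594-59533125, so its start lies 54 bases from that of Emx2, and 0610008F07Rik runs on the opposite strand at chr2:163319543-163367456, across the first start of Hnf4a. 4930412O13Rik runs on the opposite strand at chr2:9802879-9805548, inside Gata3. AI314831 runs on the opposite strand at chr2:104916695-104966667, 18 bases from Wt1. How strand was used when the reads were counted is not stated, so reads of overlapping genes on opposite strands cannot be told apart.

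The 250 bases upstream of both Hnf4a starts and of the Emx2 start are shown because Hnf4a had the widest range of group means and because Emx2 and Emx2os share their start region. They come from the RefSeq promoter table (GRCm38.p6), and each matched NCBIM37 exactly and once. The first Hnf4a window lies at chr2:163332343-163332592, inside 0610008F07Rik, the second at chr2:163372641-163372890, and the Emx2 window at chr19:59532930-59533179, all on the plus strand.
Hnf4a, first start: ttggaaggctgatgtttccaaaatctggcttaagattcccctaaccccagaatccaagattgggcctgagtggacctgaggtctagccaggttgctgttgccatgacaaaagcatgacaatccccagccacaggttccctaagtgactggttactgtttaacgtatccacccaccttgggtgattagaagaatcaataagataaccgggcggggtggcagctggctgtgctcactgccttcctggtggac
Hnf4a, second start: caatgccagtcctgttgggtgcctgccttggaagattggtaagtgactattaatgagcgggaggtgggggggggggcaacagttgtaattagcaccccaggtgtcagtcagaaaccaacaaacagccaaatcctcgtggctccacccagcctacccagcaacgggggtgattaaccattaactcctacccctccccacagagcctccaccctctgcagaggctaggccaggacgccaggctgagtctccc
Emx2: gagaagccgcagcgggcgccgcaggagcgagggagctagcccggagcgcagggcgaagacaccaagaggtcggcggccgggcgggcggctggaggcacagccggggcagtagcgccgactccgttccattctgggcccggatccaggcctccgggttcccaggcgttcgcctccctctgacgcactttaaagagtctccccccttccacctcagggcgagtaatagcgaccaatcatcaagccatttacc

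The table held 10 such windows for 7 of the 8 members, with Wt1 having no entry. The E-box CACGTG, the letters bound by MYC-MAX, stood in 0 of 10 windows, against 6.04% of 32536 windows of 250 bases, and ACGTG or its reverse complement CACGT, which CACGTG contains, in 0 of 10 (16.7% of all). They were chosen after the levels were known, and the absence of a match is a description of these letters only. The Emx2 window held 67.2% G and C, against 51.2% and 57.6% in the Hnf4a windows.

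Levels are the deposited values, in units scaled so that the upper quartile of the genes above 0 is 1000 in each library. The libraries held 8.22 to 36.6 M estimated reads, and 3 reads, the floor below which a gene was taken as barely detected, were worth 1.16 to 3.34 units in cells and 2.80 to 5.65 in tissue. The floor covers counting error only, and the 95% intervals of log2 changes come from the spread between libraries. Vhl averaged 53.6 units in VM tumours, 252 in VIM tumours and 12.7 to 30.98 in VM and VIM cells, against 686 in kidney, and Cdkn2a averaged 29.98 to 53.1 in VIM cells and tumours, against 3171 to 5162 in the other cells. Human MYC has no row, and mouse Myc was lower with Dox in each line (log2 −1.44, −1.83 and −1.96). The libraries of a line come from 1 line each, and nothing says that they are separate cultures, so that their p-values measure only the spread between these libraries, which may be technical. MYC tumour replicates 2 and 3 and the MYC-2983 line carry the same mouse number, and the tests average those tumour libraries, which leaves 2 mice in that group. VM tumour replicate 2 likewise carries the number of the VM-3055 line. In bulk libraries fewer cells of a type and less RNA per cell cannot be told apart.

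Normal kidney expressed 7 of the 8 factors above the floor in every library, and Six2 was listed at 0 in all 5. Per kilobase of the longest transcript, Hnf4a stood first in kidney at 3687 units, followed by Pax8 at 320, Emx2 at 196, Lhx1 at 89.4, Gata3 at 62.7, Wt1 at 45.4 and Pax2 at 20.2. Hnf4a and Pax8 were the highest members in the tumours too, at 1238 and 920 units per kilobase in MYC, 712 and 713 in VM, and 931 and 954 in VIM tumours. In the 6 groups of cells Pax8 stood first, between 555 and 1133 units per kilobase. Members above the floor in every library numbered 4 in MYC tumours, 5 in VM tumours and 5 in VIM tumours, 8 in MYC cells, 6 in VM cells, and 6 with and 5 without Dox in VIM cells.

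**Figure D1:**
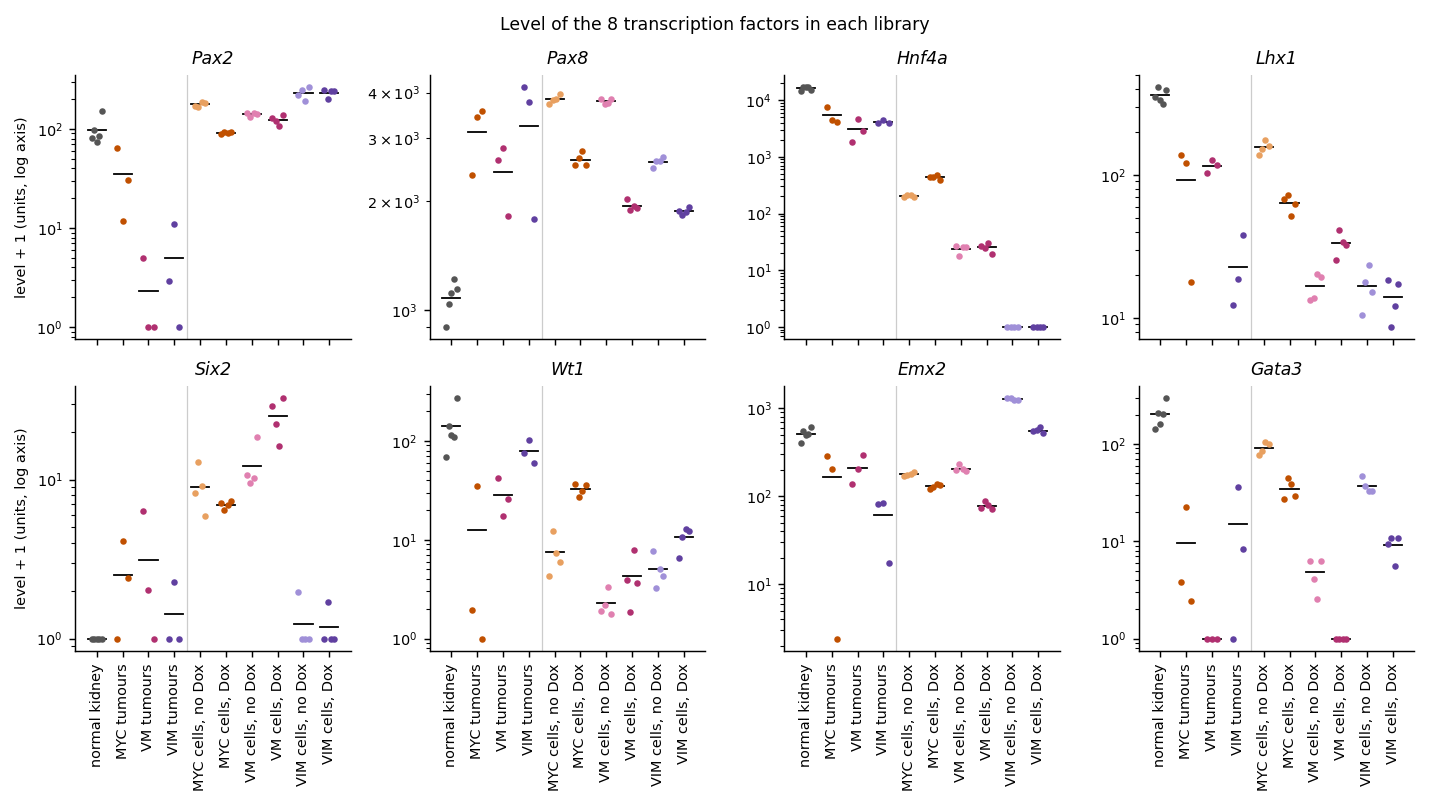
Level of each of the 8 transcription factors (units + 1, log axis) in every library of the 10 groups, with points for libraries, bars for group means and a grey line between tissue and cells. Kidney is lowest for Pax8 and highest for Hnf4a, Lhx1 and Gata3, Hnf4a is listed at 0 in all 8 VIM cell libraries, and Six2 is listed at 0 in all 5 kidneys.

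The tumours were first compared with normal kidney, which asks how far each genotype departs from the adult lineage programme. A change passed where the Benjamini-Hochberg adjusted p, taken over all genes tested, was under 0.05 and its size on the log2(level + 1) scale exceeded 1. All 3 comparisons share the same 5 kidneys. Pax8 rose and Pax2, Hnf4a, Lhx1, Emx2 and Gata3 fell in every tumour genotype, while Wt1 fell in MYC and VM tumours. That gave 1 higher and 6 lower of 8 in MYC tumours, against 18.7% and 18.5% (together 37.3%) of all genes tested. The counts were 1 higher and 6 lower of 8 in VM tumours (17.3% and 22.5%, together 39.8%) and 1 higher and 5 lower of 7 tested in VIM tumours (18.9% and 20.7%, together 39.6%). The VM count includes Gata3, which was listed at 0 in all VM tumours and entered through the kidneys alone. The median change over the members tested was −1.83, −1.95 and −3.36, beside 0.08, −0.05 and 0.01 over all genes tested.

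Pax8 read 898, 1037, 1116, 1217 and 1147 units in kidney replicates 1 to 5. It read 2371, 3424 and 3547 units in MYC tumours, 2606, 2814 and 1825 in VM tumours, and 4154, 3756 and 1782 in VIM tumours. Every tumour library lay above every kidney, and the means were 2.88-, 2.23- and 2.98-fold higher. The log2 changes were 1.42 ± 0.18 (SE) in MYC (adjusted p = 4.31e-04), 1.14 ± 0.17 in VM (3.04e-04) and 1.49 ± 0.26 in VIM tumours (0.00101). Pax8 was the only member that rose in any tumour genotype.

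Pax2, its close relative, moved the other way. Kidney read 79.6, 96.4, 72.3, 83.1 and 150.5 units. MYC tumours read 62.5, 10.8 and 29.7, VM tumours 3.99, 0 and 0, and VIM tumours 1.88, 10.03 and 0. All tumour libraries lay under all kidneys, and no VM tumour library held more than 3 reads, so that no fold is given there. The log2 changes were −4.89 ± 0.68 in VIM tumours (adjusted p = 2.59e-04, 24.3-fold lower) and −1.43 ± 0.51 in MYC tumours (0.0429, 2.81-fold lower), with an adjusted p of 3.06e-05 in VM tumours. The call in MYC tumours was lost without any 1 of the kidneys (adjusted p = 0.0572 to 0.0787) or without MYC tumour replicate 2 (0.0573), and without both libraries of mouse 2983 the change was −0.57 (0.347). Pax2 in the remaining MYC mouse was 62.5 units.

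Hnf4a fell in every genotype but stayed well expressed in the tumours. It read 14259.5, 16870.1, 16846, 17332 and 15099 units in kidney. The tumours read 7565, 4472 and 4157 in MYC, 1829.6, 4633 and 2861 in VM, and 3879, 4391 and 3908 in VIM mice, all under the lowest kidney. The means were 2.98-, 5.17- and 3.96-fold lower, with log2 changes of −1.49 ± 0.24 (adjusted p = 0.00136), −2.47 ± 0.26 (3.53e-05) and −1.98 ± 0.16 (9.86e-06). The fall in MYC tumours was −0.77, under the size threshold, after quantile normalisation. The highest Hnf4a among tumours was in MYC tumour replicate 1, which also held the highest summed level of the 6 proximal tubule markers (17996 units, against 2871 to 10271 in the other tumours and 248332 to 290316 in kidney). Hnf4a and this sum ranked the replicates alike within MYC tumours but not within VM or VIM tumours. VM replicates 1 and 2 summed to 6795 and 7012 units at Hnf4a of 1829.6 and 4633. VIM replicate 3 held the lowest sum (2871) at an Hnf4a of 3908. Whether the share of proximal tubule cells had a part in these values was not tested.

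The transcript across the first Hnf4a start was near 0 in the tumours. 0610008F07Rik read 306, 292, 279.8, 278.5 and 139 units in kidney. It was listed at 0 in all 6 MYC and VM tumour libraries and reached 1.25 units, under the floor, in VIM tumour replicate 2 alone. In all 3 genotypes every tumour library lay under every kidney, at tumour levels of Hnf4a of at least 1829.6 units. No p is given, because 0610008F07Rik entered these tests through the kidneys alone. In cells it did not exceed 0.693 units.

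Genes that HNF4A is known to activate in tubule and liver cells went down with it. All 6 listed targets fell in each of the 3 tumour genotypes (18.5%, 22.5% and 20.7% of all genes fell), by a median of −7.66, −9.80 and −6.56 in MYC, VM and VIM tumours. Slc22a6, the organic anion transporter of the proximal tubule, changed by −11.20, −13.60 and −8.65, and Ttr, the thyroid hormone carrier transthyretin, by −10.31, −11.86 and −10.20. Pck1, which makes the first committed enzyme of gluconeogenesis, averaged 70158 units in kidney and 376 to 1451 in the tumours. Slc22a6 is also one of the proximal tubule markers whose sum fell, and the share of that segment was not tested as a part of these changes.

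**Figure D2:**
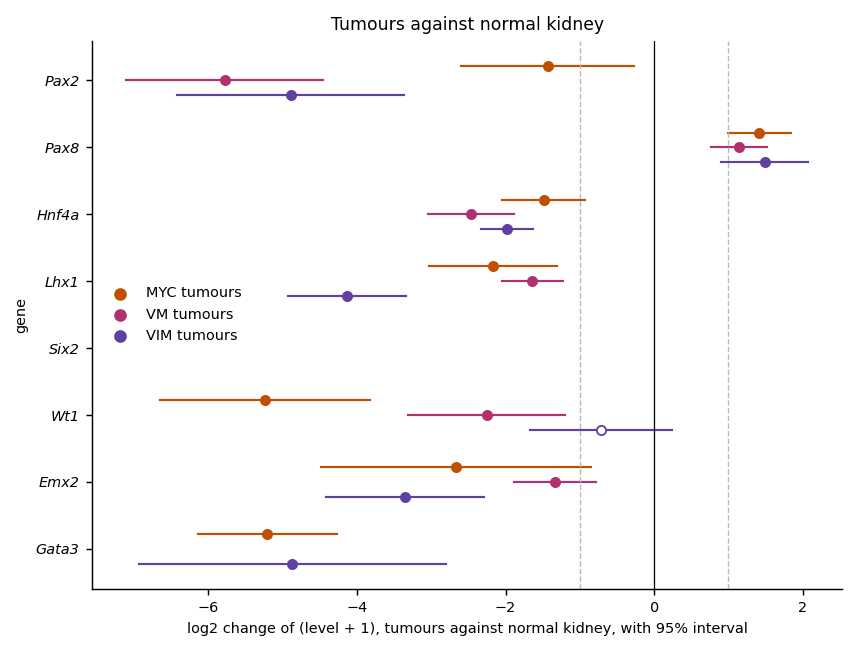
Log2 change of (level + 1) in MYC, VM and VIM tumours against normal kidney, with 95% intervals, filled points for changes that passed and dashed lines at the size threshold of 1. Pax8 lies to the right of the threshold in all 3 genotypes while Pax2, Hnf4a, Lhx1, Emx2 and Gata3 lie to the left, and Six2 and Gata3 in VM tumours are left out because a group is at 0.

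Lhx1, a homeobox factor of the nephric duct and early nephron, read 353, 415, 335, 311 and 392 units in kidney. It read 136, 120.4 and 16.9 in MYC tumours, 103, 127 and 116 in VM tumours, and 11.3, 17.5 and 36.7 in VIM tumours. No tumour reached the kidney range. The means were 3.96-, 3.14- and 16.5-fold lower, with log2 changes of −2.17 ± 0.37 (adjusted p = 0.00173), −1.64 ± 0.18 (5.45e-05) and −4.14 ± 0.35 (1.46e-05). VIM tumours thus lay under VM tumours in every library, but that difference did not pass the test between tumour genotypes given further on.

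Emx2, a homeobox factor needed in the ureteric bud, read 401, 549, 491, 505 and 602 units in kidney. Tumour levels were 287, 201 and 1.41 in MYC, 136, 200 and 289.8 in VM, and 81.0, 82.7 and 16.5 in VIM mice. All lay under the kidneys, with MYC tumour replicate 3 holding 1 read. The changes were −2.67 ± 0.79 in MYC (adjusted p = 0.0216), −1.34 ± 0.25 in VM (0.00121) and −3.36 ± 0.47 in VIM tumours (2.77e-04). Without both libraries of mouse 2983 the MYC change was −0.81 (0.0274), under the size threshold, and with these libraries entered apart the adjusted p was 0.0594. Emx2os fell in VM (−1.71, 3.01e-04) and VIM tumours (−5.04, 9.86e-06), while its change in MYC tumours was −2.33 with an adjusted p of 0.0553.

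Gata3 was low in the tumours. Kidney read 142, 209, 159, 202 and 296 units, MYC tumours 2.80, 21.6 and 1.41, and VIM tumours 0, 35.1 and 7.34, while all 3 VM tumours were listed at 0. The mean was 23.4-fold lower in MYC (log2 −5.21 ± 0.41, adjusted p = 4.21e-05) and 14.3-fold lower in VIM tumours (−4.87 ± 0.92, 0.00162). No p is given for VM tumours, where Gata3 passed the filter through the kidneys alone. 4930412O13Rik, which lies inside Gata3 on the opposite strand, averaged 42.4 units in kidney and 0.51, 0 and 2.91 in MYC, VM and VIM tumours. Whether its reads were counted as Gata3, or the reverse, was not tested. Collecting duct markers were lower in the tumours as well. The summed level of 7 such markers was 7446 to 12894 units in kidney, 10.3 to 129.6 in MYC tumours, 6.66 to 30.8 in VM tumours and 20.7 to 1286 in VIM tumours. Aqp2, Scnn1g and Atp6v1b1 were at 0 in VM tumours, and no duct marker was at 0 throughout the VIM tumours. Within each of the MYC and VIM groups, replicate 2 held both the highest duct marker sum and the highest Gata3. It also held the highest loop and distal marker sum (2758 units in MYC, 5974 in VIM) and, in MYC, the highest stromal sum (8909). MYC replicate 3 exceeded replicate 1 in duct markers (67.8 against 10.3 units) but not in Gata3. VIM replicate 3 exceeded replicate 1 in both (duct markers 42.2 against 20.7). The part of collecting duct cells in the Gata3 values was not tested.

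Wt1 passed as lower than in kidney in MYC and VM tumours. It read 67.5, 140.1, 115, 109 and 271 units in kidney, 0.933, 33.95 and 0 in MYC tumours, 41.3, 16.5 and 24.7 in VM tumours, and 75.3, 102 and 58.7 in VIM tumours. MYC and VM tumours lay under the kidneys, with means 12.1- and 5.11-fold lower and log2 changes of −5.24 ± 0.62 (adjusted p = 2.66e-04) and −2.26 ± 0.47 (0.00265). VIM tumours overlapped with kidney, at −0.72 ± 0.42 (0.185, 95% interval −1.67 to 0.24), and Wt1 in VIM tumours did not pass as different from the other tumour genotypes either. The podocyte gene Nphs1, which WT1 is known to activate, did fall in VIM tumours (log2 −6.95), fell in MYC tumours too (−6.70) and was listed at 0 in VM tumours. The 3 mesothelium markers, of a tissue that also uses WT1, summed to 47.6 to 111 units in VIM tumours, 0 to 13.1 in kidney, 1.41 to 133 in MYC and 0 to 102 in VM tumours. The part of podocytes or mesothelium in the Wt1 levels was not tested.

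Six2 was barely detected in tissue. The tumours reached at most 3.09 units in MYC, 5.33 in VM and 1.25 in VIM mice, against 0 in kidney. VM tumour replicate 1 was the only tissue library above its floor. The adjusted p was 0.192 in MYC and 0.0863 in VM tumours, and too few VIM libraries were above 0 for a test.

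Kidney titles fall into B6 (replicates 1 and 3) and KT (replicates 2, 4 and 5), a label the sources used here do not explain. KT kidney replicate 5 held the highest Pax2, Wt1, Emx2 and Gata3 of all kidneys and also the highest sums of podocyte, duct and loop markers. Against the B6 kidneys alone, Pax2 and Emx2 in MYC tumours (adjusted p = 0.242 and 0.168), Wt1 and Emx2 in VM tumours (0.0613 and 0.0526) and Gata3 in VIM tumours (0.0553) no longer passed. Against the KT kidneys alone Pax2 and Emx2 in MYC tumours did not pass (0.0835 and 0.0712), and the other calls given above held.

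Between tumour genotypes no member passed in any of the 3 comparisons, in which limma called 0, 0.00613% and 0.249% of all genes tested. At an unadjusted p under 0.05 stood 3 members between VM and MYC, 2 between VIM and MYC and 4 between VIM and VM tumours, against 13.05%, 14.5% and 11.4% of all genes. The smallest adjusted p of a member was 0.219, 0.185 and 0.168. A difference between tumour genotypes in any of the 8 factors was thus not detectable with 2 or 3 mice in a group.

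The cell lines ask how the level of each factor differs with and without Dox in 1 cultured line per genotype. By the study's methods, RNA was taken a day after the cells were seeded in either condition. Which of the changes between tumours and kidney depend on MYC was not tested by this contrast. All lines carry the MYC transgene, so an effect of Dox itself was not tested either. Within each line 3 or 4 members passed. In MYC cells Hnf4a and Wt1 rose and Lhx1 and Gata3 fell, which is 2 higher and 2 lower of 8, against 4.49% and 15% (together 19.5%) of all genes tested. In VM cells Lhx1 and Six2 rose and Emx2 and Gata3 fell, again 2 and 2 of 8 (5.92% and 18.9%, together 24.8%). Gata3 is counted there although it was listed at 0 with Dox and stood near the floor without. In VIM cells Wt1 rose and Emx2 and Gata3 fell, 1 and 2 of 6 tested (7.67% and 16.6%, together 24.3%). The median change over the members tested was −0.50, −0.05 and −0.35, beside −0.13, −0.26 and −0.15 over all genes.

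**Figure D3:**
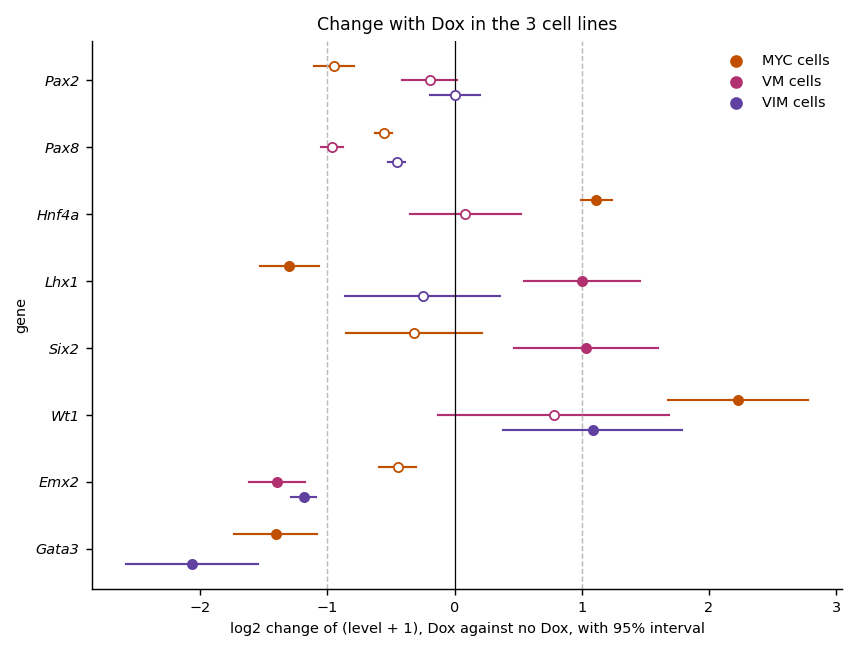
Log2 change of (level + 1) with Dox against without in MYC, VM and VIM cells, with 95% intervals, filled points for changes that passed and dashed lines at the size threshold of 1. Pax8 lies left of 0 in all 3 lines but inside the threshold, Lhx1 lies left in MYC and right in VM cells, and members listed at 0 in a group or not tested are left out.

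Gata3 was lower with Dox in every line. MYC cells read 26.3, 43.5, 37.4 and 28.3 units with Dox and 76.1, 82.9, 104 and 97.9 without. VM cells were listed at 0 in all 4 libraries with Dox and read 5.29, 3.10, 1.55 and 5.32 without, and VIM cells read 8.33, 9.71, 4.59 and 9.69 with Dox and 45.6, 35.7, 31.6 and 31.5 without. The groups did not overlap in any line. Means were 2.66-fold lower in MYC (log2 −1.40 ± 0.16, adjusted p = 1.58e-07) and 4.47-fold lower in VIM cells (−2.06 ± 0.25, 1.49e-07). For VM cells no p is given, because Gata3 entered that test through the libraries without Dox alone. Those held 2 to 8 reads, with replicate 3 under its floor. With a pseudocount of 10 the VM change was −0.46 and was not called.

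Emx2 was lower with Dox in all lines as well. MYC cells read 121, 125, 138 and 133 units with Dox and 168, 174, 179 and 185 without. VM cells read 72.4, 86.0, 78.9 and 71.1 with Dox and 198, 231, 201 and 189.9 without. VIM cells, which held the most Emx2, read 542, 558, 605 and 515 with Dox and 1299, 1289, 1236 and 1229 without. The groups were separate in each line, and the log2 changes were −0.45 ± 0.07 (adjusted p = 1.39e-05, under the size threshold), −1.40 ± 0.10 (9.98e-10) and −1.19 ± 0.05 (8.83e-16). In VM cells the change was −0.98 after quantile normalisation.

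Its divergent neighbour moved the same way and by more. Emx2os averaged 10.3 units with Dox and 30.9 without in MYC cells, 8.74 and 61.5 in VM cells, and 50.9 and 224 in VIM cells. The changes, which passed in each line, were −1.49 ± 0.17 (adjusted p = 2.62e-07), −2.73 ± 0.23 (5.98e-09) and −2.12 ± 0.11 (5.88e-14). Over the 10 group means the log2 levels of Emx2 and Emx2os correlated at r = 0.91, the highest of 13354 genes searched for Emx2. The 2 annotated genes do not overlap.

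**Figure D4:**
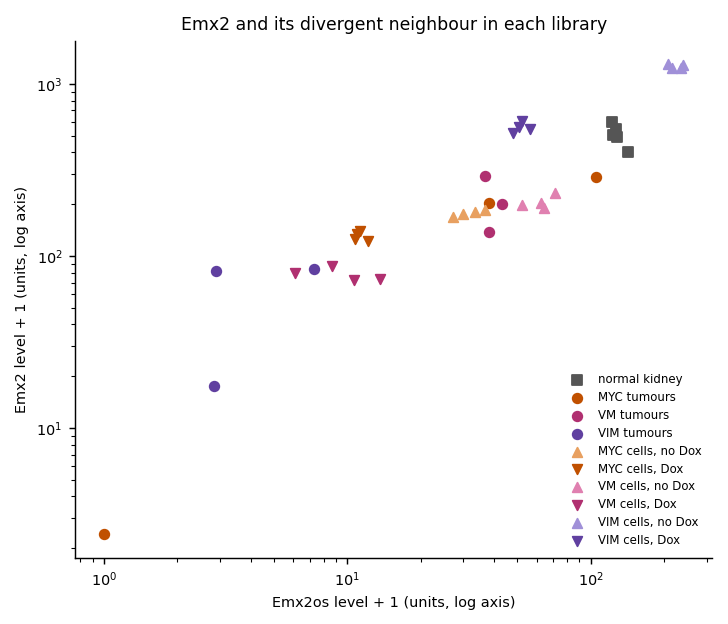
Level of Emx2 against that of its divergent neighbour Emx2os (units + 1, log axes) in all 38 libraries, coloured by group. Both are lower with Dox in each line, and VIM tumours sit far below kidney for both.

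Pax8 was lower with Dox in all 12 of 12 libraries against those of the same line without, though by less than the size threshold. MYC cells read 2521, 2630.2, 2754 and 2520.4 units with Dox and 3707, 3811, 3849.5 and 3972 without. VM cells read 2033, 1894, 1939.7 and 1913 with Dox and 3835, 3715, 3736 and 3848 without. VIM cells read 1882, 1829, 1869 and 1934 with Dox and 2472, 2579, 2586 and 2654 without. The log2 changes were −0.56 ± 0.03 (adjusted p = 8.72e-12), −0.96 ± 0.04 (4.22e-13) and −0.45 ± 0.03 (3.18e-11), which are 1.47-, 1.95- and 1.37-fold. Even with Dox each line stood above kidney, where Pax8 averaged 1083 units.

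The lines differed in Hnf4a by more than Dox changed it. MYC cells read 446, 439.9, 482 and 395 units with Dox and 194, 209, 209 and 198 without, 2.17-fold higher with Dox (log2 1.11 ± 0.06, adjusted p = 3.70e-12). VM cells read 25.9, 23.8, 29.7 and 18.4 with Dox and 25.6, 17.1, 24.8 and 24.3 without, a change of 0.09 (0.720, 95% interval −0.35 to 0.52). VIM cells were listed at 0 in all 8 libraries. The change in MYC cells differed from that in VM cells by −1.03 (adjusted p = 1.72e-04), and leaving out single libraries took this difference to between −0.904 and −0.996 in some fits, and quantile normalisation to −0.56 (0.0217), all under the size threshold.

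Wt1 was low in all cells. With Dox it read 35.8, 26.1, 29.8 and 34.6 units in MYC cells and 3.28, 11.2, 6.37 and 4.90 without, 4.91-fold higher (log2 2.23 ± 0.26, adjusted p = 3.59e-07). In VIM cells it read 5.55, 9.71, 11.8 and 11.3 with Dox and 6.64, 2.23, 4.08 and 3.32 without, 2.36-fold higher with overlapping groups (1.09 ± 0.34, 0.00624). That change was 0.98 without Dox replicate 3 and 0.90 without replicate 2 of the cells off Dox. VM cells stayed at or under 6.79 units, with a change of 0.78 (0.111, 95% interval −0.13 to 1.69). Podxl, a podocyte surface sialomucin among the WT1 targets, rose with Dox in MYC (1.53 ± 0.03, 3.68e-18) and VIM cells (1.99 ± 0.04, 2.93e-20) and changed by 0.78, under the size threshold, in VM cells. Spry1, an inhibitor of receptor tyrosine kinase signalling on the same list, fell in MYC cells (−1.04) and changed by −0.77 and −0.97, under the size threshold, in VM and VIM cells. Nphs1 was listed at 0 in all cells, and the podocyte marker Synpo fell with Dox in each line (−1.93, −3.49 and −2.03 in MYC, VM and VIM cells). The 3 mesothelium markers summed to 5.09 to 19.4 units with Dox and 67.1 to 147 without, and their part in the Wt1 levels was not tested.

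Lhx1 went in opposite directions in MYC and VM cells. MYC cells read 67.1, 71.2, 50.9 and 61.8 units with Dox and 136, 152, 174 and 159 without, 2.47-fold lower (log2 −1.30 ± 0.11, adjusted p = 3.60e-09). VM cells read 24.4, 40.0, 33.1 and 31.6 with Dox and 12.3, 12.8, 19.4 and 18.2 without, 2.06-fold higher (1.0006 ± 0.22, 4.26e-04). VIM cells overlapped, at −0.25 (0.450, 95% interval −0.86 to 0.36). The difference between the MYC and VM changes was 2.30 (adjusted p = 1.65e-07), and it was 1 of 4 members whose change differed between these lines by more than 1, against 8.78% of all genes. The VM change was just over the size threshold and was 0.89 to 0.98 without Dox replicate 2 or 3 or without replicate 1 or 2 off Dox, and the MYC change was −0.99 after quantile normalisation.

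Six2 was above the floor in every library of MYC and VM cells. VM cells read 28.1, 21.3, 15.3 and 31.6 units with Dox and 9.70, 8.53, 9.30 and 17.5 without, 2.14-fold higher with overlapping groups (log2 1.04 ± 0.27, adjusted p = 0.00204). The change was 0.89 to 0.99 without replicate 1 or 4 with Dox or without replicate 1, 2 or 3 off Dox. MYC cells held 5.44 to 6.29 units with Dox and 4.90 to 11.8 without (−0.32, 0.263, 95% interval −0.85 to 0.21). In VIM cells Six2 did not exceed 0.949 units, which is under the floor.

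Pax2 changed with Dox in MYC cells only by a size under the threshold. It read 88.9, 91.9, 90.5 and 92.8 units with Dox and 171, 164, 187.5 and 183 without (log2 −0.94 ± 0.07, adjusted p = 1.51e-09). VM cells held 106 to 137 units with Dox and 130.3 to 145 without (−0.20, 0.0956, 95% interval −0.41 to 0.02), and VIM cells 200.3 to 244 and 191 to 267 (0.01, 0.958, −0.19 to 0.20). The MYC change differed from both others, by 0.75 (2.94e-05) and 0.95 (2.25e-06), each under the size threshold. In all, the change with Dox differed by more than 1 in 4 of 8 members between VM and MYC cells, in Lhx1 and Wt1 between VIM and MYC cells (9.06% of all genes, with Hnf4a left aside because VIM cells were listed at 0) and in 1 of 8 between VIM and VM cells (6.05%).

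The lines were then compared with each other on Dox, where genotype, founder mouse and line cannot be told apart. The library numbers in the table run separately for MYC cells and for VM and VIM cells, which cannot be told apart from the line either. VM and MYC cells differed in 4 of 8 members (24.6% of all genes), VIM and MYC cells in 7 of 8 (23.9%) and VIM and VM cells in 6 of 8 (19.1%). These counts include Gata3 at 0 in VM cells and Hnf4a at 0 in VIM cells, which entered through the other line alone. The widest gap was in Hnf4a, 18.03-fold lower in VM than in MYC cells (log2 −4.13 ± 0.13, adjusted p = 3.31e-12) and at 0 in VIM cells. Emx2 was 4.30-fold higher in VIM than in MYC cells (2.09 ± 0.06, 8.95e-13) and 7.201-fold higher than in VM cells (2.83 ± 0.08, 2.71e-14). Pax2 was 2.54-fold higher in VIM than in MYC cells (1.33 ± 0.08, 1.38e-09).

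The remaining factors were lower in VIM or VM than in MYC cells, with exceptions. Lhx1 was 4.802-fold lower in VIM than in MYC cells (−2.23 ± 0.23, adjusted p = 4.61e-07) and 2.47-fold lower than in VM cells (−1.28 ± 0.25, 2.61e-04). Wt1 was 9.54-fold lower in VM than in MYC cells (−3.09 ± 0.35, 1.90e-06) and 3.29-fold lower in VIM cells (−1.66 ± 0.23, 1.08e-05). Six2 was 4.04-fold higher in VM than in MYC cells (1.80 ± 0.23, 8.00e-06). Gata3 was 4.19-fold lower in VIM than in MYC cells (−1.96 ± 0.24, 4.20e-06). Pax8 varied least between the lines, with −0.42 between VM and MYC, −0.47 between VIM and MYC and −0.05 between VIM and VM cells (0.193, 95% interval −0.12 to 0.02). Off Dox, Pax2 in VM against MYC cells turned from 0.42 to −0.33 and Emx2 from −0.74 to 0.21. Calls lost off Dox were those of Six2 between VM and MYC cells (0.44, 0.168), Pax2 and Wt1 between VIM and MYC cells (0.38, under the size threshold, and −0.52, 0.199) and Lhx1 between VIM and VM cells (−0.03, 0.921). Lhx1 between VM and MYC cells gained a call off Dox, going from −0.95 to −3.25 (adjusted p = 2.37e-10), with 15.7 units in VM and 155 in MYC cells. After quantile normalisation Wt1 and Gata3 between VIM and MYC cells were under the size threshold too (−0.62 and −0.90).

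Each line with Dox was also set beside the tumours of its genotype. Members that differed numbered 5 of 8 for MYC (38.3% of all genes), 6 of 7 for VM (40.7%, and 6 without VM tumour replicate 2, of the same mouse number as the line) and 4 of 8 for VIM (45.8%). The tests treat cells and tumours of the same mouse number as unrelated. Hnf4a was lower in the cells of every genotype, 12.2-fold in MYC (log2 −3.70 ± 0.22, adjusted p = 4.27e-05) and 127-fold in VM (−6.85 ± 0.31, 1.54e-06). VIM cells were at 0 against 3879 to 4391 units in VIM tumours. That difference is counted above, but no p is given because Hnf4a entered the test through the tumours alone. Pax2 was higher in the cells of every genotype, 2.65-fold in MYC (1.40 ± 0.45, 0.0327) and 58.2-fold in VIM (6.19 ± 0.70, 1.52e-04), and in VM it stood at 106 to 137 units in cells against at most 3.99 in tumours (5.41e-05). Pax8 did not pass in any genotype, at −0.14 (0.428, 95% interval −0.50 to 0.22), −0.29 (0.117, −0.63 to 0.05) and −0.69 (0.0551, −1.32 to −0.06).

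The other factors split by genotype. Wt1 was higher in MYC cells than in MYC tumours (3.26 ± 0.47, adjusted p = 0.00125) but lower in VM (−2.81 ± 0.56, 0.00257) and VIM cells (−2.92 ± 0.35, 2.05e-04). MYC tumour replicate 2, at 33.95 units, lay within the range of the MYC cells (26.1 to 35.8). With the tumour libraries of mouse 2983 entered apart, this call was lost (2.99, adjusted p = 0.0530). Emx2 was 9.24-fold higher in VIM cells (3.49 ± 0.52, 6.29e-04) and 2.70-fold lower in VM cells (−1.36 ± 0.27, 0.00248). Lhx1 was 3.57-fold lower in VM cells (−1.82 ± 0.26, 4.45e-04), and Gata3 was 3.94-fold higher in MYC cells (2.69 ± 0.38, 0.00110). Pax2 in MYC cells against tumours lost its call without any 1 library of the cells (adjusted p = 0.0714 to 0.0739) or without tumour replicate 3 (0.0534), and without both libraries of mouse 2983 its change was 0.53. Without MYC tumour replicate 3, Wt1 and Gata3 in MYC cells no longer passed (1.98, 0.162 and 1.88, 0.0611), and under quantile normalisation Lhx1, Wt1 and Emx2 in VM cells fell under the size threshold (−0.55, −0.88 and −0.52). The 6 proximal tubule markers summed to 3219 to 7763 units in the cells, but most of them were barely detected. Slc34a1, Slc5a2 and Slc22a6 were at or under the floor in every group of cells. Slc27a2 was too, except in MYC cells without Dox, which left Lrp2 and Cubn above it throughout. Markers of other types differed in level. Summed levels in cells were 0 to 12.5 units for 4 endothelial markers (188 to 1917 in tumours), 0 to 22.8 for 7 duct markers and 218 to 1006 for 4 leukocyte and macrophage markers (1143 to 6427 in tumours), of which C1qa was at 0 in VM and VIM cells. Stromal markers, 4 in number, summed to 228 to 798 units in MYC cells, 4.24 to 33.4 in VM cells and 35.4 to 155 in VIM cells, and their part in these differences was not tested.

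Genes known to be regulated by PAX2, PAX8 or GATA3 were mostly lower with Dox in the cells. Of Ret, Gdnf, Wnt4 and Cdh16, 3 of 4 fell in MYC cells, 4 of 4 in VM cells and 3 of 4 in VIM cells, against 15%, 18.9% and 16.6% of all genes, with medians of −1.47, −2.15 and −1.35. Ret, the receptor tyrosine kinase of the ureteric bud, changed by −1.33 ± 0.32, −2.27 ± 0.19 and −1.38 ± 0.17. Gdnf, the ligand that signals through it, averaged 25.5 units with Dox and 92.9 without in MYC cells, 24.6 and 182 in VM cells, and 58.1 and 146 in VIM cells. Wnt4, which drives progenitors to become epithelium, averaged 54.8 and 169, 192 and 791, and 256 and 714 units. In tumours the same list moved differently, with 0 of 4 passing in MYC mice, Ret higher in VM (1.58, adjusted p = 0.0472) and VIM tumours (2.50, 0.0266), and Cdh16, the cadherin whose promoter drives the transgenes, lower in VIM tumours (−1.15, 0.00183).

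**Figure D5:**
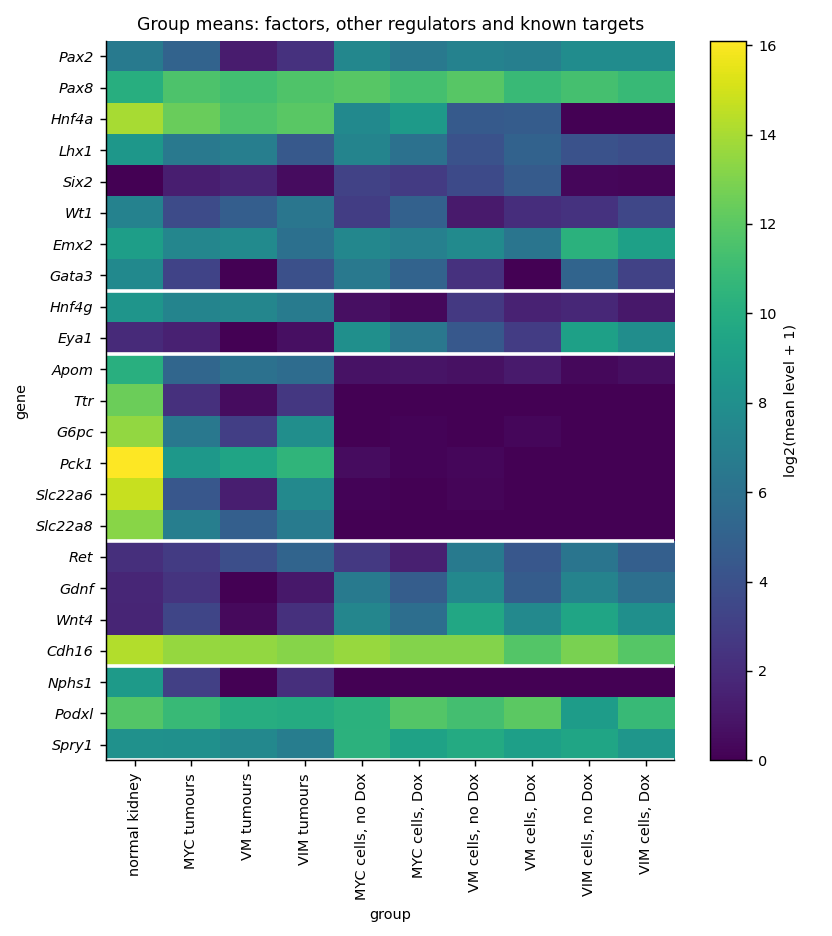
Mean level of the 8 factors, of related regulators and of known targets in the 10 groups, as log2(mean level + 1). The HNF4A targets are highest in kidney and near 0 in the cells, and Pax8 is high in all groups.

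The genes most like each member over the 10 group means, among 13354 genes with a highest group mean of at least 50 units, are given as a description of groups that share libraries and scaling. Hnf4a was most like Fmo1 (r = 0.996), Chdh (0.99) and Cebpa (0.98), a flavin monooxygenase, choline dehydrogenase and the factor C/EBP alpha. Pax2 was most like Gpd2 (0.98), Dock1 and 1110012J17Rik (both 0.96). Pax8 was most like the RNA helicase gene Ddx17 (0.95), Ppp1r15a and Enkur (both 0.93), and Gata3 most like Pcdh7, Pdlim2 (both 0.96) and Tle2 (0.95). Lhx1 followed Cpxm1 (0.94), Fn3krp (0.92) and Gclm (0.91), and Wt1 followed Cox11 (0.97), Taco1 and Ccdc56 (both 0.95). Among the members themselves the highest value was 0.72 between Hnf4a and Lhx1 and the lowest −0.64 between Hnf4a and Pax2. Six2, whose highest group mean was under 50 units, was not searched.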

How the data were processed

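RNA was sequenced from 24 libraries of cells, 9 of tumours and 5 of normal kidney with a stranded kit. According to the labels and the study's methods, the authors aligned reads to mm9 with MapSplice, handled them with Picard 1.64 and SAMtools, estimated gene counts with RSEM and set the upper quartile of every library at 1000. The deposited values are thus a normalised signal, not counts. Computed over genes above 0, that quartile was 998.6 to 1000. The most frequent low value above 0 was taken as the worth of 1 read, by which 94.1% to 95.9% of the values under 20 reads were whole within 0.02, and this gave the estimated reads and the floor of 3 reads. The median variance between the replicates of a group was 1.39 to 30.5 times that expected from counting. This median cannot exclude that a single library is a copy of another.

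Groups were taken from the sample labels. Levels were compared with limma 3.58.1 in R 4.3.3 (linear fit and empirical Bayes with a trend, two-sided) on log2(level + 1) over the groups compared, for genes above 0 in at least 4 libraries (cells) or 2 (tumours). Fold changes on this scale understate those of low genes, and folds given are ratios of mean levels. Adjusted p-values are Benjamini-Hochberg values over all genes tested. The difference in the Dox change between lines was fitted as an interaction. The named genes are the 8 members, genes that overlap or adjoin them, the 2 to 4 largest changes of each list among those that passed, and the 3 genes most like each member. The members and lists were chosen with earlier results of these data known. Same-numbered libraries correlated across genes at −0.31 to −0.05 in VM cells, −0.06 to 0.11 in VIM cells and −0.07 to 0.21 between VM and VIM cells. These values cannot show whether the numbers mark libraries handled together, and the reported fits did not pair by number.

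Alternatives were pseudocounts of 0.1 and 10, a minimum mean of 10 units or no filter, quantile normalisation, rescaling by trimmed means (TMM, trims of 30% and 5%), a replicate block, lines without Dox, kidneys by title, tumour libraries of mouse 2983 apart or left out, and each library left out. The scripts were tested on simulated data. Some genes of the lists are not reported here. Plots were made with matplotlib 3.10.9 (Python 3.11.15).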

Additional observations from a re-analysis of the deposited data

Results flagged for a closer look

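The change with Dox differed between lines for several members (interaction in limma, adjusted over all genes tested). Between VM and MYC cells the differences were 2.30 in Lhx1 (adjusted p = 1.65e-07), 1.36 in Six2 (0.00601), −1.45 in Wt1 (0.0253), −1.03 in Hnf4a (1.72e-04), −0.95 in Emx2 (1.50e-06), 0.75 in Pax2 (2.94e-05) and −0.40 in Pax8 (9.10e-07). Between VIM and MYC cells they were 1.05 in Lhx1 (0.0116), −1.14 in Wt1 (0.0373), −1.11 in Hnf4a (4.01e-04), which is listed at 0 in VIM cells, 0.95 in Pax2 (2.25e-06) and −0.74 in Emx2 (5.48e-08). Between VIM and VM cells they were −1.25 in Lhx1 (0.0158) and 0.51 in Pax8 (3.26e-08). Wt1 was lost between VIM and MYC cells in 7 of the fits without 1 library (adjusted p up to 0.0903), with no filter and with pseudocounts of 0.1 and 10, and Lhx1 fell under 1 in 5 of them (to 0.845). Between VM and MYC cells Wt1 was lost in 3 of them (up to 0.0617), after quantile normalisation (0.0819), with no filter (0.0733) and with a pseudocount of 0.1 (0.166). In Hnf4a between VIM and MYC cells the difference is the MYC change alone. Differences of more than 1 numbered 4, 3 (with Hnf4a) and 1 members, against 8.78%, 9.06% and 6.05% of all genes tested.

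In 3 of 49 groups of libraries tested, 1 library stood apart from the others of its group by Dixon's criterion, where chance gives about 1 in 20. Pax2 was lowest in VIM cells with Dox, replicate 2, at 200.3 units (next 239). Hnf4a was lowest in VM cells without Dox, replicate 2, at 17.1 units (next 24.3). Six2 was highest in VM cells without Dox, replicate 4, at 17.5 units (next 9.70).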

How the results depend on the processing

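Counts of members that passed were the same or within 1.5 times in 272 of the refits and moved in 16. With a pseudocount of 10, the Dox comparison in VM cells called 1 member instead of 4, VIM against VM cells 3 instead of 6, and the interaction between VIM and VM cells 0 instead of 1. That interaction gave 2 with a pseudocount of 0.1, with TMM and with quantile normalisation, which also took VM cells against tumours from 6 to 3. Leaving out each library in turn gave 1 to 4 members for Dox in VM cells (1 without replicate 1 or 2 off Dox), 2 to 3 in VIM cells, 4 to 4 in MYC cells, 5 to 5 for VIM against VM cells, 6 to 7 for VIM against MYC and 3 to 5 for VM against MYC cells. It gave 3 to 4, 1 to 4 and 1 to 2 for the interactions of VM with MYC, VIM with MYC and VIM with VM. Against kidney it gave 5 to 8 members in MYC, 7 to 8 in VM and 6 to 6 in VIM tumours, and 0 to 0 between tumour genotypes. For cells against tumours it gave 3 to 6 in MYC (3 without tumour replicate 3), 6 to 6 in VM and 4 to 5 in VIM. A gene at 0 in a whole group leaves the test when a library of the other group is left out, since 4 libraries above 0 are required. Single member changes were followed where the adjusted p was under 0.05 in the reported fit. Among those changes 2 reversed, both with lines compared off Dox (Pax2 −0.33 and Emx2 0.21, VM against MYC cells), 89 lost their call and 6 gained it. The replicate block gave 4 members for Dox in VM cells, 3 in VIM cells, 6 between VIM and VM cells and 1 in their interaction, as without it, and changed no call count. Quantile normalisation moved the share of lower genes among all calls with Dox from 77.0%, 76.2% and 68.4% to 57.9%, 50.6% and 50.5% in MYC, VM and VIM cells, and TMM to 67.5%, 59.4% and 56.5%. TMM moved the median change of genes at 50 units or more from −0.06, −0.17 and −0.09 to 0.08, 0.07 and 0.07. No member change followed in this way reversed under either scaling, and changes with a larger adjusted p were not followed. Tissue libraries are shallower than cells, and Six2, Gata3 and Pax2 in tumours lie near the floor.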

Other observations

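Eya1, the partner of SIX2 in nephron progenitors, fell with Dox in all 3 lines, from 257 to 80.9 units on average in MYC cells (log2 −1.66 ± 0.08, adjusted p = 6.31e-13), from 20.5 to 6.26 in VM cells (−1.63 ± 0.32, 1.46e-04) and from 558 to 239.6 in VIM cells (−1.21 ± 0.06, 2.61e-14), against 2.75 in kidney.

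Of the 7 listed duct factors 3, 6 and 4 were lower than in kidney in MYC, VM and VIM tumours, against 18.5%, 22.5% and 20.7% of all genes. Elf3, an epithelial ETS factor on the list, was higher in MYC (2.26) and VM tumours (1.38). Foxi1, the factor of intercalated cells, changed by −5.68, −8.18 and −4.27, and Gata2 by −4.53, −5.16 and −3.98, beside the low sums of duct markers given above.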
